A study of Mus musculus with 32 samples.

Results

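The genes described here build and run motile cilia. They are 40 genes chosen by name from the 46165 gene records of each library, namely ciliogenesis regulators, axonemal dyneins, radial spoke and central pair proteins, tektins and other axoneme proteins, docking and ruler proteins, and dynein assembly factors. All 40 were found in the files, and all 40 had enough reads to be tested in every comparison. The lungs came from C57BL/6 mouse pups and were sequenced as 32 bulk libraries of polyadenylated RNA, 4 in each of 8 groups.

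At postnatal day 14, under isoflurane, 5 groups were taken. One was untreated. A second received saline daily from day 1 to day 13 at 25 µl per g. Another received nuclease-free water on days 1 and 3 at 10 µl per g. The remaining day-14 groups received the control oligonucleotides Scrambled 1 or Scrambled 2 in that water, on the same days, at 10 mg per kg. Both are locked nucleic acid inhibitors with a scrambled sequence. At day 6, under pentobarbital, 3 groups were taken, each injected on days 1 and 2 with 25 µl of saline, of Miglyol (an oil used as a solvent) or of Miglyol holding 0.4 mg of tamoxifen (a drug used to switch on inducible Cre). All injections were intraperitoneal and all lungs were perfused. No group carries a transgene in the labels. Saline was injected at both ages, but on other days and in other volumes. Nothing in the labels ties a library to a separate animal beyond its replicate number, so each p describes the scatter of these libraries alone.

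Motile cilia line the conducting airways and move mucus towards the throat. Their core, the axoneme, is a ring of doublet microtubules around a central pair. Dynein arms on the doublets supply the force, radial spokes and nexin links regulate the bending, and docking and ruler proteins set where the arms sit. Assembly factors fold the dyneins in the cytoplasm, and Mcidas, Foxj1 and the Rfx factors switch the programme on in multiciliated cells. These cells are a small part of the lung, so a bulk library holds few of their reads, and fewer cells of a type and less RNA per cell cannot be told apart.

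The libraries held 7918537 to 12443221 exon reads (median 9371682), of which 4378 to 8605 lay on the 40 genes (median 5740). Levels are given as CPM, the exon read count scaled to the size of the library with TMM factors. The thinnest member was Ccdc103, with 2 to 26 reads a library, and the deepest was Tppp3, with 1147 to 2899. In 8 members under 90% of the exon reads were unique (Dnah1, Dnah3, Dnah11, Spag17, Ccdc39, Ccdc151, Zmynd10 and Dnaaf1), so their values include reads shared with other places. The lowest unique share was 53.6%, in Ccdc39. Strand handling is not given in the sources used here, so reads of overlapping antisense genes could be included. Marker genes of club, basal, epithelial and alveolar cells all had reads in some library of each age, as did all 32 genes of a further list for ciliated cells. That list also holds tubulin genes such as Tubb4b, so it is not free of axoneme parts. The 5 basal markers were near the floor, with a sum of at most 8.57 CPM at day 14 and 4.78 CPM at day 6.

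RFX factors bind the promoters of many cilia genes, so the promoters were read first. RefSeq (GRCm38.p6) windows of 300 bases, from 250 before to 50 after the start, were held for 31 of the 40 genes. The RFX half-site GTTGCC, on either strand, was in 14 of these 31 windows (45.2%), against 14.1% of the windows of 27025 genes. Paired half-sites, GTNNCC then 1 to 3 bases and then GGNNAC, were in 6 of 31 (19.4%) against 4.00%, and a pair may overlap a single half-site. The forkhead core TGTTTAC, the kind of site that Foxj1 can bind, was in 1 of 31 (3.23%, Ak7) against 4.05%. These matches describe letters in a window and are not measured sites. The 4 windows below are all among the 14 with the half-site, which is in capitals, and belong to genes with results given below. They do not stand for all such genes, since Foxj1, Tppp3 and Dnah11 are not among the 14.
Dynlrb2: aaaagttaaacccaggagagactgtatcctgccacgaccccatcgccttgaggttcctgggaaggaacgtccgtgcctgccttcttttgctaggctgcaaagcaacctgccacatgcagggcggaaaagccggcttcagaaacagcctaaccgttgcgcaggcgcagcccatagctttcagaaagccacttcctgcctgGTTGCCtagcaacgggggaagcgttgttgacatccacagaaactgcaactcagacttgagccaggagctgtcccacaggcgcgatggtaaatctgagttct
Tekt4: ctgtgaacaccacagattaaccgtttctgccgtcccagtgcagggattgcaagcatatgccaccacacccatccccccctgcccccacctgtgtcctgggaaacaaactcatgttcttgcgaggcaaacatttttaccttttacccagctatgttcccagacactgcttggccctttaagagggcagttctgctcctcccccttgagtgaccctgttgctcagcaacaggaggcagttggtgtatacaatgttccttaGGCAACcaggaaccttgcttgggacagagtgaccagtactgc
Spef2: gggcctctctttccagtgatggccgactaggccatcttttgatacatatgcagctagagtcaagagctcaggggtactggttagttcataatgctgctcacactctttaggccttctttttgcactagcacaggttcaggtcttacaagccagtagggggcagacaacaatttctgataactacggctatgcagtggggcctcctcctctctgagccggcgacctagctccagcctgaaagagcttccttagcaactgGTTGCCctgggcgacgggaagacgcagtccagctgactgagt
Mcidas: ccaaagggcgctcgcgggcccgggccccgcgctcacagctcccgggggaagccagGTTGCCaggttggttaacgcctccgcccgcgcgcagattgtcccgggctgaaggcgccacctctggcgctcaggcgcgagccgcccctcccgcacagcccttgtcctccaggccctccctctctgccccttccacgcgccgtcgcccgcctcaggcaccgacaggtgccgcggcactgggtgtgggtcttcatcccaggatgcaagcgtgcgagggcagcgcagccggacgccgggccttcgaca
In GRCm38.p6 the Dynlrb2 window is chr8:116504765-116505064 on the plus strand, and its RefSeq start site is that of the gene record in the files. The Tekt4 window is chr17:25471340-25471639 on the plus strand, and its RefSeq start site lies 37945 bases inside the longer record of the files. The Spef2 window is chr15:9748819-9749118 on the minus strand, and its RefSeq start site lies 176 bases from the record's start. The Mcidas window is chr13:112993618-112993917 on the plus strand, and its RefSeq start site lies 396 bases from the record's start. Each window holds 1 half-site, and those of Tekt4 and Spef2 also match the paired pattern, in Tekt4 away from the letters in capitals. The Dynlrb2 half-site is followed at once by tagcaac. The paired pattern does not count this, as its second part must begin with GG, so no match there does not mean no pair. No binding was measured in these libraries.

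The levels differed widely between members when divided by exon length. Tppp3, a tubulin polymerisation promoting protein (gene ID 67971, chromosome 8, 105467492 to 105471422, minus strand), had a median of 213 CPM per kb of exon at day 14. It alone made up 30.1% to 45.1% of the summed CPM of the 40 genes at day 14 and 22.7% to 33.0% at day 6. Next per kb came Dynlrb2, a dynein light chain of the roadblock type (gene ID 75465, chromosome 8, 116505015 to 116515915, plus strand), with 20.2 CPM per kb at day 14. Foxj1, the forkhead factor that turns on motile cilia genes (gene ID 15223, chromosome 11, 116330704 to 116335516, minus strand), followed at 12.6 CPM per kb. Tppp3 is also made in cells without motile cilia, so sums are given without it below.

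By role, the 8 axonemal dynein heavy chains, the motor subunits, were low per kb at day 14, from 0.471 in Dnah1 to 1.68 in Dnah6. The 5 intermediate and light chains ran from 1.44 in Dnaic1 to 20.2 in Dynlrb2. Radial spoke and central pair genes ran from 0.630 in Hydin, a central pair protein, to 7.68 in Rsph1, a spoke head protein. Docking, ruler and nexin link genes ran from 0.624 in Armc4 to 5.15 in Ccdc39, a ruler protein. The 4 assembly factors lay close together, from 1.18 in Dnaaf1 to 2.31 in Dnaaf3. Among the regulators, Rfx2 stood at 4.40 and Rfx3 at 2.32, while Mcidas, the coregulator that starts multiciliated cell fate, stood at 0.519 CPM per kb.

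At day 14 the summed level of the 39 members without Tppp3 was 294 to 507 CPM over 20 libraries (median 423). The group means were 386 ± 75.3 CPM in untreated, 409 ± 70.5 after daily saline, 430 ± 84.9 after water, 399 ± 61.9 after Scrambled 1 and 428 ± 56.9 after Scrambled 2 (SD, n = 4 each). The means lie closer to each other than the libraries of a single group do. At day 6 the sum was 372 to 511 CPM over 12 libraries, with the same median of 423. Group means at day 6 were 433 ± 33.5 CPM after saline, 403 ± 32.4 after Miglyol and 448 ± 54.5 after tamoxifen (SD, n = 4 each).

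**Figure D1:**
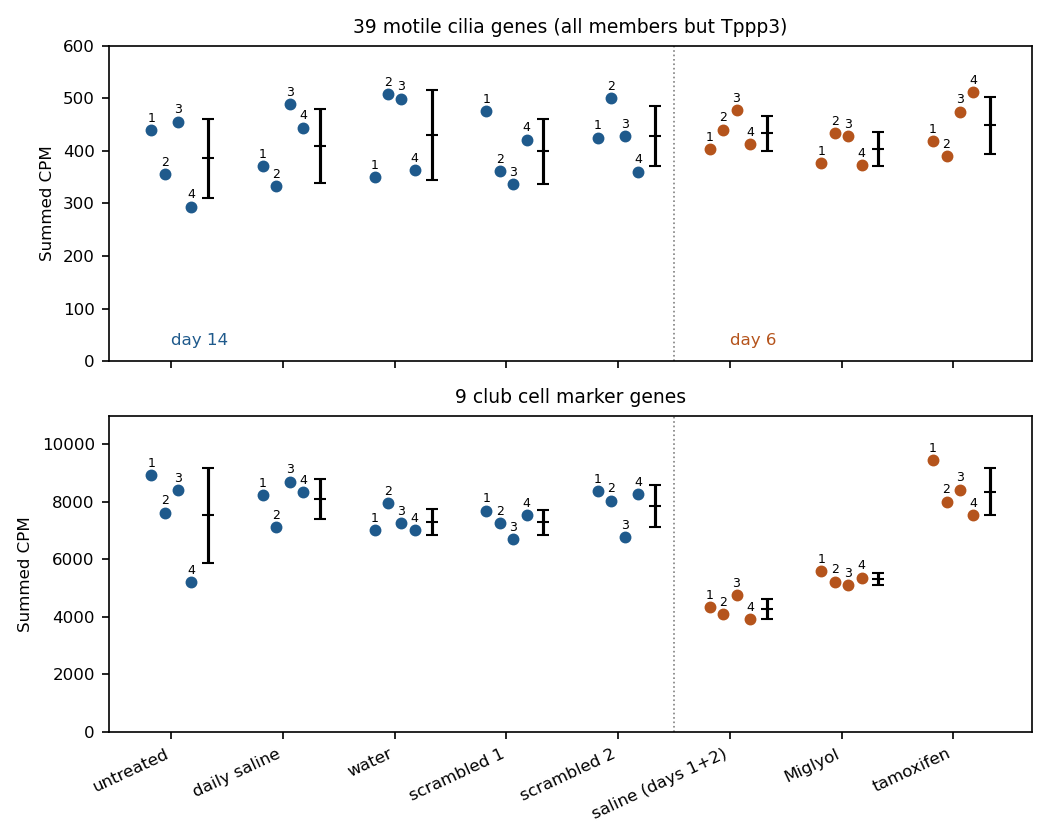
Summed CPM of the 39 members without Tppp3 (top) and of 9 club cell marker genes (bottom) by group, blue at day 14 and orange at day 6. Each numbered point is 1 library and the bars are the mean and SD of 4. The cilia sums overlap among all 8 groups, with untreated replicate 4 lowest at 294 CPM, while at day 6 the club cell sums of the tamoxifen group lie above those of the other groups.

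None of the 40 members passed the edgeR test in any of the 8 day-14 comparisons. Of the 14179 genes tested, 0.233% passed for daily saline against untreated, 0.0494% for water against untreated, 2.74% for daily saline against water, 0.12% for Scrambled 1 against water and 0% for Scrambled 2 against water. The shares were 0.205% for Scrambled 1 against Scrambled 2, 0.303% for Scrambled 1 against untreated and 0% for Scrambled 2 against untreated. In the order just given, 0, 1, 1, 2, 0, 2, 1 and 1 members had an unadjusted p under 0.05, and DESeq2 called 0 in each. Leaving out any of the libraries gave 0 as well. These comparisons share groups with each other and are not independent.

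Rsph4a, a spoke head protein, had a small p in 3 of them. Its CPM in replicate order was 7.35, 4.94, 8.25 and 3.83 in untreated, 7.46, 9.34, 9.80 and 7.00 after water, 7.37, 4.53, 3.81 and 5.75 after Scrambled 1, and 8.15, 9.98, 7.08 and 5.10 after Scrambled 2. Water libraries were all at 7.00 CPM or more, and each pair of these groups overlaps. The log2 fold change was 0.47 (SE 0.22, edgeR adjusted p = 0.612) for water against untreated and -0.65 (SE 0.23, adjusted p = 0.287) for Scrambled 1 against water. For Scrambled 1 against Scrambled 2 it was -0.50 (SE 0.23, adjusted p = 0.426).

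Rfx2, which cooperates with Foxj1 at cilia genes, measured 16.1, 14.9, 13.2 and 13.5 CPM in untreated and 19.2, 17.4, 18.6 and 16.1 after Scrambled 1. The lowest Scrambled 1 library stood just above the highest untreated one, so these ranges do not overlap, which holds for 5.08% of all genes tested. Its log2 fold change was 0.30 (SE 0.11, edgeR adjusted p = 0.384) against untreated and 0.24 (SE 0.11, adjusted p = 0.422) against water.

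Dnaic2, an outer arm intermediate chain, measured 8.87, 7.09, 9.44 and 6.76 CPM in untreated and 9.15, 14.8, 10.9 and 10.5 after Scrambled 2. One Scrambled 2 library fell within the untreated range. The log2 fold change was 0.50 (SE 0.22, edgeR adjusted p = 0.720). For daily saline against untreated it was 0.36 (SE 0.22, adjusted p = 0.647), and for Scrambled 2 against water 0.32 (SE 0.21, adjusted p = 0.965).

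Ccdc114, an outer arm docking protein, measured 8.76, 9.59, 12.4 and 9.15 CPM after daily saline and 11.6, 12.0, 14.0 and 11.9 after water. A single saline library, replicate 3, lay in the water range. The log2 fold change of daily saline against water was -0.32 (SE 0.13, edgeR adjusted p = 0.205). Zmynd10, a dynein assembly factor with shared reads, measured 5.62, 6.27, 5.50 and 5.19 CPM after Scrambled 1 and 7.52, 9.07, 7.63 and 7.53 after Scrambled 2. These ranges do not overlap, against 5.1% of all genes, and the log2 fold change was -0.50 (SE 0.20, adjusted p = 0.363).

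Ccdc39 was below untreated without overlap after Scrambled 2, against 3.16% of all genes, with a log2 fold change of -0.23 (adjusted p = 0.857). For the remaining pairs with the smallest p, the log2 fold change of Ccdc40, the partner of Ccdc39, was 0.43 (SE 0.24, edgeR adjusted p = 0.630) for daily saline against untreated. Dnah9, an outer arm heavy chain of distal cilia, had 0.46 (SE 0.26, adjusted p = 0.666) for water against untreated. Wdr78, an inner arm intermediate chain, had -0.29 (SE 0.17, adjusted p = 0.367) for daily saline against water. Rfx3 had 0.11 (SE 0.08, adjusted p = 0.965) for Scrambled 2 against water. Tppp3 had 0.16 (SE 0.08, adjusted p = 0.568) for Scrambled 1 against untreated, and Ak7, an axonemal adenylate kinase, 0.46 (SE 0.23, adjusted p = 0.790) for Scrambled 2 against untreated. The ranges overlap in all 6.

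The spread between day-14 libraries of a group was wider for these genes than for most. The median biological coefficient of variation was 19.5% over the 40 members, against 7.93% over all 14179 genes tested. At day 6 the medians were 11.9% and 8.43%. Over all 20 day-14 libraries, the plain coefficient of variation of CPM ran from 7.24% in Rfx3 to 35.7% in Armc4, a docking protein with 11 to 42 reads a library. Unlike the medians above, it includes differences between groups and counting noise. Within roles it was 15.5% to 33.7% in the heavy chains and 22.2% to 28.8% in the assembly factors.

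Members were high or low together by library. Untreated replicate 4 was the lowest of the 20 day-14 libraries in 21 of 40 members and above the day-14 median in 3. It stood at 16.2 CPM for Foxj1, where the other untreated libraries had 42.9, 31.7 and 39.8. For Dynlrb2 it had 5.41 CPM against 13.9, 10.6 and 13.5. Its 9 club cell markers, genes of the secretory cells that share the airway lining, summed to 5192 CPM, the lowest of the day-14 libraries, whose median was 7662. Its 10 epithelial markers summed to 1152 CPM, within the untreated range of 1121 to 1206. Untreated replicate 4 also stood apart over all genes. The chi-square per gene between 2 libraries was 7.21 to 9.30 for its pairs with the others of its group, which differed among themselves by 4.63 at most. Intron reads were 15.5% of its gene reads, against 10.9%, 12.3% and 12.3% in the other untreated libraries and 8.69% to 16.1% over the 32 libraries. Over the 40 genes its intron share was 28.1%, the highest of the 32 libraries. The parts of airway content and of intron share in the cilia values were not tested.

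Scrambled 2 replicate 2 was the highest day-14 library in 12 members, among them Dnah5, an outer arm heavy chain, at 30.9 CPM against 17.7, 22.0 and 11.6 in its group. Daily saline replicate 3 lay above the day-14 median in 39 of 40 members, water replicate 3 in 38 and water replicate 2 in 37. Low libraries also occurred in every day-14 group, such as daily saline replicate 2, which was above the median in 3 members. Water replicate 3 stood apart in markers of other tissues, with adipose markers at 289 CPM against a day-14 median of 8.36 and skeletal muscle markers at 314 against 11.1. Its cartilage markers were at 143 CPM against 27.5 and its thymus markers at 30.3 against 5.33. Without that library 0 members passed in the comparisons with water, as with it.

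**Figure D2:**
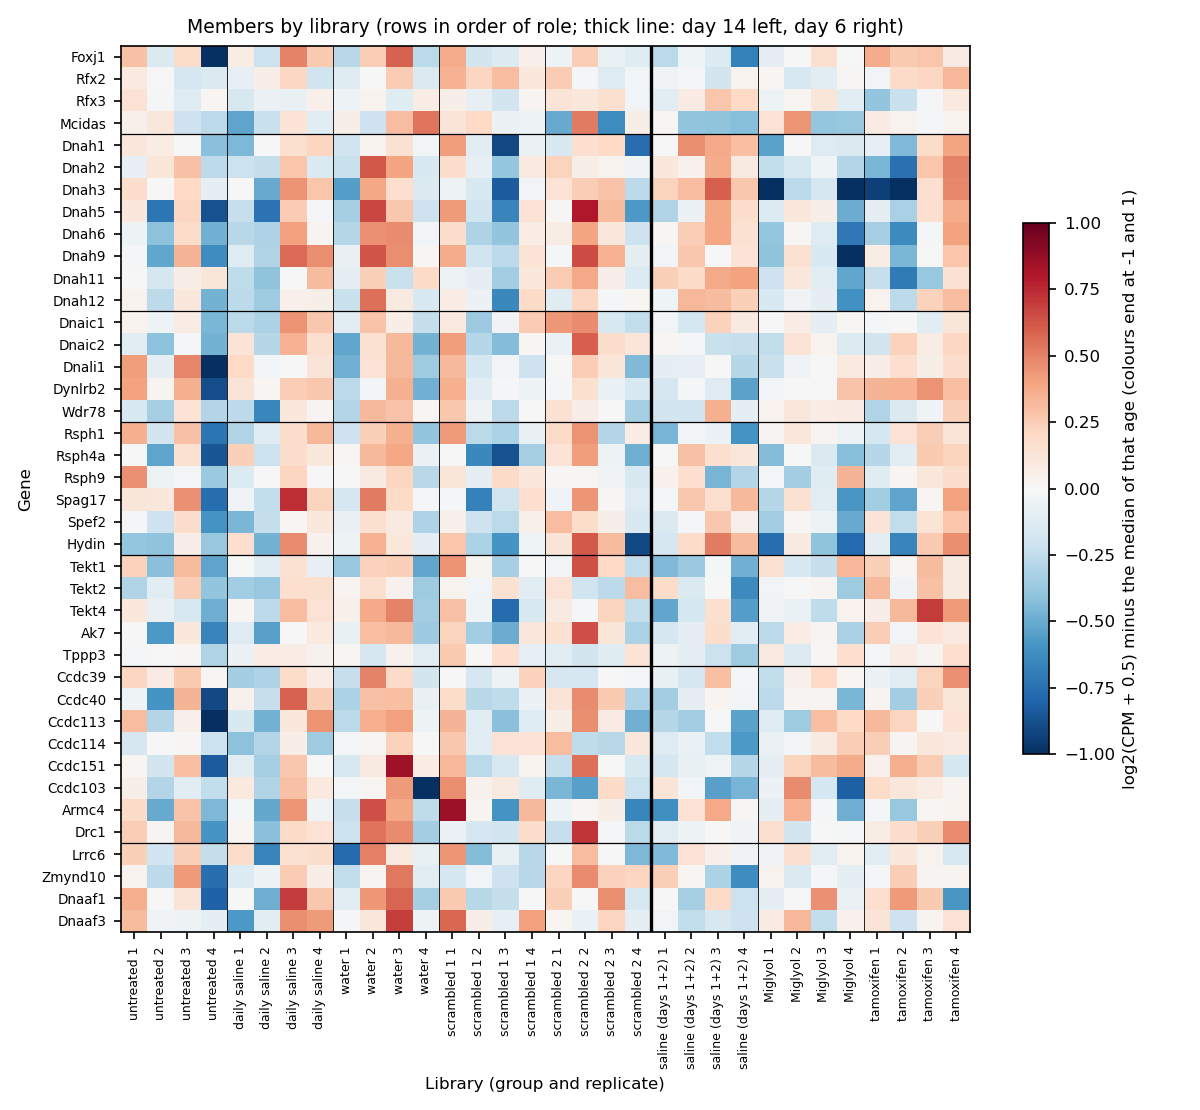
Each row is a member, in order of role, and each column a library, with log2(CPM + 0.5) minus the member's median over the libraries of that age. Columns tend to be of one colour at day 14, as in untreated replicate 4, which was lowest in 21 of 40 members, and the dynein heavy chain rows are mostly red in saline and blue in several Miglyol and tamoxifen libraries at day 6.

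At day 6 the oil was set against saline to ask what the vehicle does. In the edgeR fit 0 of 40 members passed for Miglyol against saline, against 10.6% of the 14107 genes tested, and 15 members had an unadjusted p under 0.05. DESeq2 called 5 members lower, and edgeR on only the 8 libraries compared called 8 lower. Without saline replicate 1 the count was 2, both lower, and without Miglyol replicate 2 it was 6, of which 5 were lower. The share of all genes called in these other fits is not given here. Their counts therefore do not show whether the members moved more than all genes did. The long dynein heavy chain genes were below saline and the short genes above it. All 8 heavy chains had a log2 fold change below 0 (median -0.47), and in 5 the ranges do not overlap. Over all 40 members 6 do not overlap (these 5 and Rsph4a), against 21.8% of all genes, so the members together are below that share. The median over all 40 members was 0.06, and over all genes tested 0.02. Miglyol replicate 4 was the lowest of the 12 day-6 libraries in 10 members and the highest in 3. Over all genes its chi-square per gene was 6.84 to 8.84 against the others of its group, which differed among themselves by 3.67 at most.

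Dnah11, an outer arm heavy chain with shared reads (gene ID 13411, chromosome 12, 117877982 to 118199043, minus strand), had the smallest p. It measured 20.6, 19.9, 22.8 and 23.2 CPM after saline and 15, 18.8, 16.2 and 12.0 after Miglyol. Every Miglyol library lay below every saline library, and the fitted log2 fold change was -0.49 (SE 0.15, 95% confidence interval -0.82 to -0.17, edgeR adjusted p = 0.0507). DESeq2 gave an adjusted p of 0.0243. The other heavy chains whose ranges do not overlap were Dnah1, Dnah2, Dnah3 and Dnah6, each below saline.

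Dnah12, an inner arm heavy chain, measured 14.2, 18.5, 18.3 and 17.3 CPM after saline and 13.1, 14.2, 13.7 and 9.42 after Miglyol. Saline replicate 1 and Miglyol replicate 2 meet at the edge of the ranges. The log2 fold change was -0.44 (SE 0.14, edgeR adjusted p = 0.0528), and DESeq2 gave an adjusted p of 0.0321. Dnah3, an inner arm heavy chain with shared reads, was more uneven, with 17.8, 19.0, 23.2 and 18.4 CPM after saline and 6.89, 12.5, 13.5 and 5.69 after Miglyol. Its log2 fold change was -1.04 (SE 0.43, adjusted p = 0.136).

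Hydin, also a long gene, measured 8.64, 11.2, 14.1 and 12.3 CPM after saline and 5.56, 10.4, 7.27 and 5.49 after Miglyol. One Miglyol library lay inside the saline range, and the log2 fold change was -0.71 (SE 0.25, edgeR adjusted p = 0.0806). Of the regulators, Foxj1 stood at 0.29 on the log2 scale (SE 0.11, adjusted p = 0.0946), and Rfx2 one of -0.02 (SE 0.10, adjusted p = 0.938). Ccdc39 stood at -0.02 (SE 0.13, adjusted p = 0.949), Dnaic1, an outer arm intermediate chain, at -0.05 (SE 0.17, adjusted p = 0.870) and Rsph1 at 0.32 (SE 0.14, adjusted p = 0.149).

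The values differed with exon length over the whole table, most at its ends. The 10 members with 10 kb of exon or more were all below 0, with a median log2 fold change of -0.47. Over all 679 genes of that length the median was -0.29, 92.0% were below 0, 38.7% were called lower and 0% called higher. The 8 members under 2 kb were all above 0 (median 0.25), and the 2994 genes of that length had a median of 0.19 with 10.1% below 0. Between these, the 7023 genes of 2 to 5 kb went both ways, with a median of 0.04, 40.9% below 0, 2.25% called lower and 2.11% called higher. The 3411 genes of 5 to 10 kb had a median of -0.13. When the trend with exon length was removed from each library, a step added after results were seen, the median of the 10 long members was -0.16, with 7 below 0. Dnah11 then had a log2 fold change of -0.16 (edgeR adjusted p = 0.420) and Dnah12 one of -0.15 (adjusted p = 0.489).

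**Figure D3:**
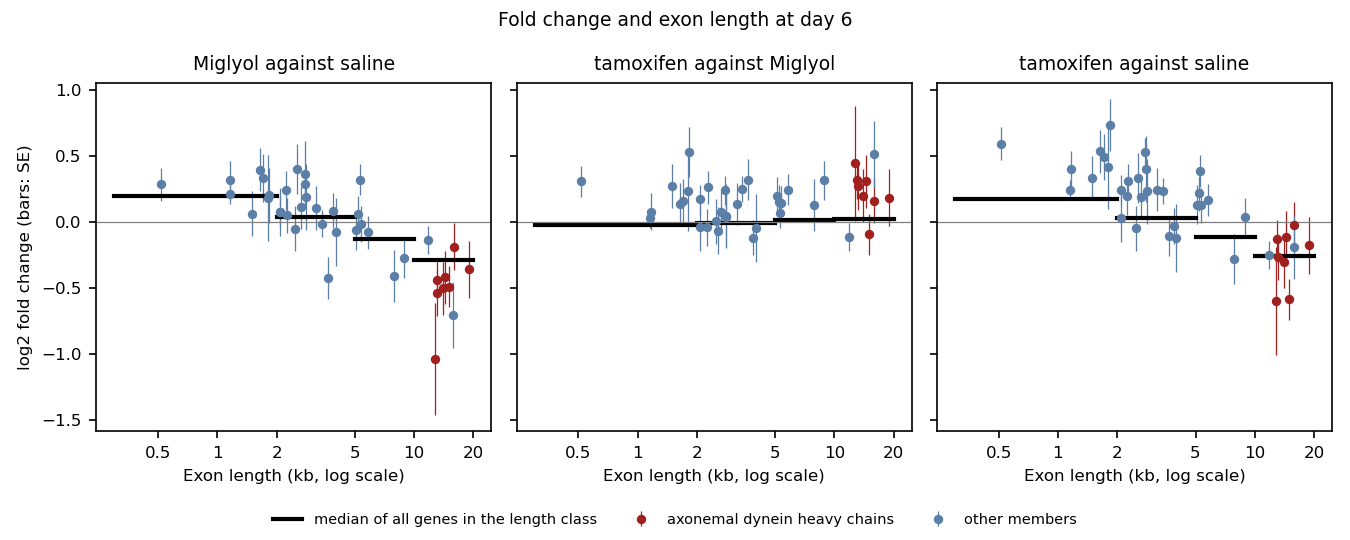
Log2 fold change (SE as bars) against exon length in kb (log scale) for the 40 members in the 3 day-6 comparisons, with dynein heavy chains in red and the median of all genes of each length class as black lines. In both comparisons with saline values are lower at greater length, as the black lines are, which run from 0.19 under 2 kb to -0.29 at 10 kb or more for Miglyol, and for tamoxifen against Miglyol the lines are near 0.

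Other lists of the ciliated airway are set against the 10.6% of all genes called for Miglyol, of which 470 of 14107 were higher. They were not set against genes of like exon length. Of all genes under 2 kb 10.5% were called higher. Of the 32 further ciliated cell genes 4 were called higher and 0 lower, 27 were above 0 and the median was 0.19. Of 76 other axoneme genes tested 1 was higher and 1 lower. These were Nme5, at 0.46 on the log2 scale (SE 0.14, edgeR adjusted p = 0.0410), and Dnah8, a heavy chain outside the 40, at -0.36 (SE 0.10, adjusted p = 0.0353). Of 9 club cell markers 1, the secretoglobin Scgb1a1, rose by 0.32 on the log2 scale (SE 0.08, adjusted p = 0.0213), and all 9 were above 0 (median 0.46). Among 18 genes of the multiciliogenesis programme Cep63, a centrosome gene, was called higher at 0.30 (SE 0.08, adjusted p = 0.0317).

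Tamoxifen against Miglyol asks what the drug adds to its oil. None of the 40 members passed in the edgeR fit, against 5.68% of all genes, 6 had an unadjusted p under 0.05, and DESeq2 called 0. The log2 fold change was above 0 in 33 of 40 members (median 0.16), and in 6879 of the 14107 genes tested (median 0.00). The tamoxifen libraries were uneven, with replicate 4 above the day-6 median in 37 of 40 members and highest in 10, replicate 3 above it in 32, and replicates 1 and 2 in 19 each. Replicate 4 also stood apart over all genes, with a chi-square per gene of 11.8 to 16.6 against the others of its group, which differed among themselves by 8.88 at most. Without it 0 members passed as well, and its part in the 33 was not tested. Ranges do not overlap in 2 members (Tekt4 and Dynlrb2), against 11.1% of all genes. Length classes of all genes lay near 0 here, with medians of -0.02 under 2 kb and 0.02 at 10 kb or more.

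Tekt4, a tektin inside the doublet microtubules (gene ID 71840, chromosome 17, 25433645 to 25476602, plus strand), measured 3.99, 3.91, 3.36 and 4.24 CPM after Miglyol and 4.34, 5.29, 7.00 and 5.70 after tamoxifen. The lowest tamoxifen library was just above the highest Miglyol one. The log2 fold change was 0.53 (SE 0.19, 95% confidence interval 0.13 to 0.93, edgeR adjusted p = 0.118). Dynlrb2 measured 10.3, 10.4, 10.5 and 12.8 CPM after Miglyol and 13.4, 13.5, 14.5 and 13.0 after tamoxifen. Miglyol replicate 4 came close to the tamoxifen libraries, and the log2 fold change was 0.31 (SE 0.12, adjusted p = 0.151).

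Among the other genes that stand for their role, Foxj1 stood at 0.24 on the log2 scale (SE 0.11, edgeR adjusted p = 0.222), Rfx2 0.25 (SE 0.10, adjusted p = 0.166) and Rfx3 -0.11 (SE 0.11, adjusted p = 0.611). Mcidas stood at 0.04 (SE 0.23, adjusted p = 0.952). Dnah5 had 0.16 (SE 0.17, adjusted p = 0.670) and Dnah9 0.31 (SE 0.20, adjusted p = 0.437), while Hydin had 0.51 (SE 0.25, adjusted p = 0.276). In the same comparison 5.68% of all genes were called in either direction. Of 9 club cell markers 4 were called higher and 0 lower, with Scgb1a1 at 0.69 (SE 0.08, edgeR adjusted p = 0.000126). Of the 32 further ciliated cell genes 1 was called, a share below that of all genes. It was Cyp2s1, at 0.35 (SE 0.08, adjusted p = 0.0176).

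Tamoxifen in Miglyol against saline changes drug and solvent together and shares a group with each of the comparisons just given. Here 7 of 40 members passed, 6 higher and 1 lower, against 23.7% of all genes (11.3% higher and 12.3% lower). The share of members called is thus below that of all genes in total and for falls, but above it for rises. Whether these shares differ was not tested. The members that rose were Dynlrb2, Foxj1, Tekt4, Tekt1, Ccdc114 and Tppp3, and Dnah11 fell. The median log2 fold change was 0.18 over the members and 0.01 over all genes tested, and ranges do not overlap in 8 members, against 22.8% of all genes.

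Of the regulators, Foxj1 measured 29.2, 34.2, 32.0 and 21.9 CPM after saline and 45.7, 42.4, 42.7 and 37.3 after tamoxifen. All tamoxifen libraries were above all saline libraries, and the Miglyol libraries, at 33.0, 35.1, 39.5 and 35.4, overlapped both. Foxj1 rose by 0.53 on the log2 scale (SE 0.11, 95% confidence interval 0.30 to 0.76, edgeR adjusted p = 0.00290). Mcidas did not pass, with 2.47, 1.73, 1.72 and 1.68 CPM after saline and 2.60, 2.5, 2.39 and 2.5 after tamoxifen (log2 fold change 0.40, SE 0.25, adjusted p = 0.256). Rfx2 had 0.23 (SE 0.10, adjusted p = 0.101) and Rfx3 -0.25 (SE 0.11, adjusted p = 0.0950).

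Of the dyneins, Dynlrb2 measured 9.25, 10.4, 9.56 and 7.06 CPM after saline and the tamoxifen values given above, with no overlap. It rose by 0.59 on the log2 scale (SE 0.12, 95% confidence interval 0.33 to 0.85, edgeR adjusted p = 0.00279). Dnah11 measured 14.8, 10.5, 13.3 and 19.4 CPM after tamoxifen, all below the saline libraries, and fell by 0.59 on the log2 scale (SE 0.16, adjusted p = 0.0129). It stood at a like level after Miglyol, where the log2 fold change of tamoxifen against Miglyol was -0.09 (95% confidence interval -0.43 to 0.24). All 8 heavy chains were below 0 (median -0.22), and Dnah11 was the one called.

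Of the tektins, Tekt4 measured 2.71, 3.59, 4.66 and 2.65 CPM after saline. One saline library lay within the tamoxifen range, and Tekt4 rose by 0.73 on the log2 scale (SE 0.20, edgeR adjusted p = 0.0137). Tekt1 measured 4.81, 5.08, 6.62 and 4.68 CPM after saline and 8.03, 6.82, 8.51 and 7.20 after tamoxifen. The ranges do not overlap, and Tekt1 rose by 0.53 (SE 0.16, adjusted p = 0.0251).

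Ccdc114 measured 12.5, 13.0, 11.4 and 9.01 CPM after saline and 16.3, 13.9, 14.8 and 14.6 after tamoxifen. It rose by 0.39 on the log2 scale (SE 0.12, edgeR adjusted p = 0.0271) with no overlap. Tppp3 measured 158, 154, 141 and 128 CPM after saline and 163, 172, 167 and 184 after tamoxifen. It rose by 0.24 (SE 0.07, adjusted p = 0.0279), also with no overlap. Further genes narrowly missed the threshold, Ccdc113, a coiled-coil protein of cilia, at 0.49 (SE 0.18, adjusted p = 0.0503) and Rsph1 at 0.40 (SE 0.14, adjusted p = 0.0523).

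**Figure D4:**
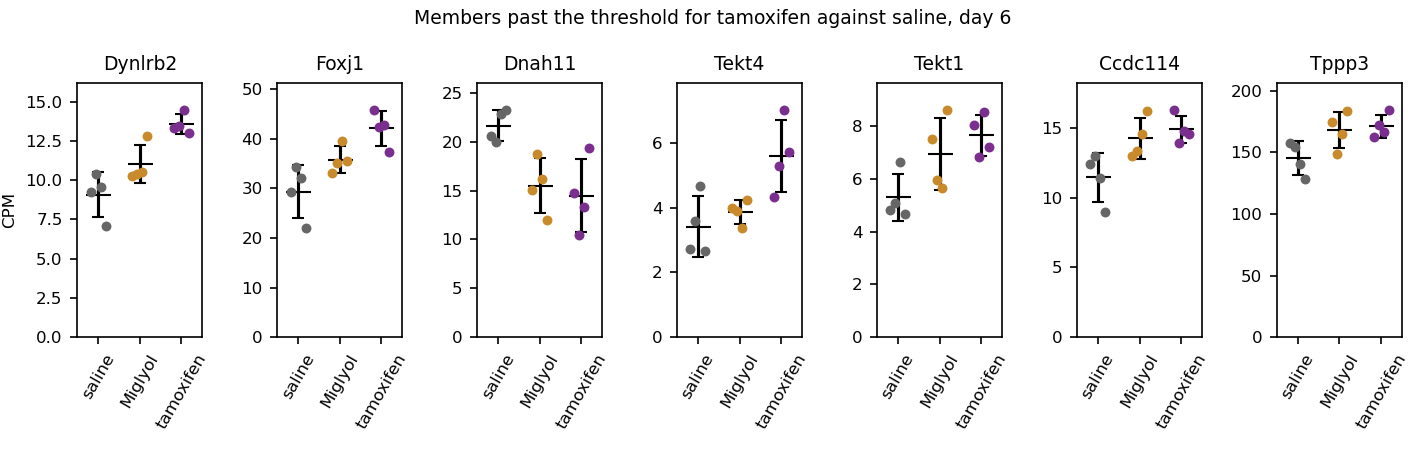
CPM of the 7 members called for tamoxifen against saline at day 6, with each point 1 library and bars for the mean and SD of 4. In 5 genes every tamoxifen library is above every saline library, in Tekt4 the ranges overlap, and in Dnah11 the Miglyol and tamoxifen libraries both lie below the saline libraries, which stand at 19.9 to 23.2 CPM.

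The calls changed when single libraries were left out and when the exon length trend was removed. Without saline replicate 4, which was the lowest of the 12 day-6 libraries in 13 members, 3 members were called (2 higher and 1 lower), and without tamoxifen replicate 4 the calls were 9 (5 higher and 4 lower). Foxj1, Dynlrb2 and Dnah11 passed in all 8 fits that leave out 1 library, Tekt4 in 7, Ccdc114 and Tppp3 in 5 each and Tekt1 in 3. All genes under 2 kb had a median of 0.17 and those of 10 kb or more one of -0.26. With the length trend removed 3 members were called, Foxj1 at 0.48 (edgeR adjusted p = 0.00441), Ccdc114 at 0.46 (adjusted p = 0.0130) and Tekt4 at 0.62 (adjusted p = 0.0370). Dynlrb2 was then at 0.33 (adjusted p = 0.0539), Dnah11 at -0.29 (adjusted p = 0.0554), Tekt1 at 0.40 (adjusted p = 0.0823) and Tppp3 at 0.07 (adjusted p = 0.492). The share of all genes called in these refits is not given here, so their counts of members stand without it.

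Lists outside the 40 members are set against the 23.7% of all genes called for tamoxifen against saline (11.3% higher). They were not set against genes of like exon length. Of all genes under 2 kb 21.1% were called higher, and of those of 10 kb or more 45.7% were called lower. Of the 32 further ciliated cell genes 13 rose and 0 fell (median 0.36), among them Ccdc153 at 0.74 (SE 0.12, edgeR adjusted p = 0.000408) and Aldh3b1 at 0.63 (SE 0.10, adjusted p = 0.000408). Of 76 other axoneme genes 8 rose and 2 fell (median 0.14). Dnah8 fell by 0.57 on the log2 scale (SE 0.10, adjusted p = 0.00125), and Cfap126, which helps set up the basal bodies, rose by 0.57 (SE 0.13, adjusted p = 0.00383). Ccdc37 rose by 0.60 (SE 0.14, adjusted p = 0.00636) and Nme5 by 0.51 (SE 0.14, adjusted p = 0.0142). None of 18 multiciliogenesis genes passed in edgeR, and 2 had an unadjusted p under 0.05.

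Markers of other cell types were also called in this comparison, against the same share of all genes. Of 9 club cell markers 6 rose and 0 fell, and the list summed to 3914 to 4748 CPM after saline, 5089 to 5576 after Miglyol and 7533 to 9449 after tamoxifen. Scgb1a1 rose by 1.01 on the log2 scale (SE 0.08, edgeR adjusted p = 2.07e-06). Of 10 epithelial markers 7 rose, and their sum was 1257 to 1371 CPM after saline and 1442 to 1651 after tamoxifen. Of 6 mesothelial markers, genes of the lung's outer lining, 3 rose and 0 fell (median 0.36), and of 7 alveolar type 2 markers 2 rose and 0 fell (median 0.20). No marker of these lists was at 0 in all libraries of an age. Their part in the cilia values was not tested.

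Day 14 was set against day 6 as the mean of 5 groups against the mean of 3. Age, treatment and anaesthetic cannot be told apart in this contrast. Of the 40 members 12 passed, 2 higher and 10 lower, against 61.4% of 14406 genes tested (30% higher and 31.3% lower). The share of members called is below that of all genes. The median log2 fold change was -0.05 over the members and -0.01 over all genes. Ranges do not overlap in 1 member, Tppp3, against 9.45% of all genes.

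Tppp3 had 200 to 295 CPM at day 14 (median 246, n = 20) and 128 to 184 CPM at day 6 (median 164, n = 12). Every day-14 library stood above every day-6 library. It rose by 0.60 on the log2 scale (SE 0.04, 95% confidence interval 0.51 to 0.69, edgeR adjusted p = 2.88e-14). Dnah12 had 11.3 to 26.5 CPM at day 14 (median 18.0) and 9.42 to 18.5 at day 6 (median 14.6), with much overlap. It was called higher at 0.23 (SE 0.09, adjusted p = 0.0335), passed in 24 of 32 fits that leave out 1 library, and stood at -0.04 between only the daily saline group and the day-6 saline group.

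Mcidas (gene ID 622408, chromosome 13, 112993472 to 113000394, plus strand) had 0.763 to 2.33 CPM at day 14 (median 1.46) and 1.68 to 3.47 CPM at day 6 (median 2.43). The ranges overlap, and the gene rests on 7 to 35 reads a library. It fell by 0.65 on the log2 scale (SE 0.14, edgeR adjusted p = 0.000201). Between only the 2 saline groups the value was -0.60 (adjusted p = 0.0925). Rfx3 also fell, by 0.16 (SE 0.05, adjusted p = 0.00439), while Foxj1 was at 0.04 (SE 0.11, 95% confidence interval -0.19 to 0.28, adjusted p = 0.770) and Rfx2 at 0.04 (SE 0.05, adjusted p = 0.517).

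Dnah1, an inner arm heavy chain with shared reads, had 3.07 to 8.42 CPM at day 14 (median 6.18) and 5.01 to 10.5 CPM at day 6 (median 7.51). It fell by 0.38 on the log2 scale (SE 0.11, edgeR adjusted p = 0.00468). Spag17, a central pair protein with shared reads, had 3.38 to 10.4 CPM at day 14 (median 6.03) and 5.28 to 10.9 at day 6 (median 8.13). It fell by 0.33 (SE 0.12, adjusted p = 0.0219). The ranges of the ages overlap in both genes.

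Spef2, a central pair protein (gene ID 320277, chromosome 15, 9578193 to 9749044, minus strand), had 5.18 to 10.2 CPM at day 14 (median 8.12) and 6.83 to 12.1 CPM at day 6 (median 9.88). It fell by 0.31 on the log2 scale (SE 0.08, edgeR adjusted p = 0.00151). Dnaaf3, an assembly factor, had 3.31 to 8.66 CPM at day 14 (median 5.19) and 6.07 to 9.33 at day 6 (median 7.30). It fell by 0.32 (SE 0.10, adjusted p = 0.00563). Between only the 2 saline groups Dnah1 was at -0.59 (adjusted p = 0.00373), Spef2 at -0.47 (adjusted p = 0.0108), Spag17 at -0.42 (adjusted p = 0.0538) and Dnaaf3 at -0.20 (adjusted p = 0.419).

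The other members called lower were Ccdc114, Ccdc39, Ak7 and Wdr78, by 0.19 to 0.24 on the log2 scale. Members that stand for their role and did not pass were Dnah5 at 0.16 (SE 0.16), Dnah9 at 0.04 (SE 0.13), Dnaic1 at 0.15 (SE 0.11), Rsph1 at 0.02 (SE 0.11), Hydin at 0.07 (SE 0.14) and Tekt1 at 0.13 (SE 0.11). For Rsph1 the 95% confidence interval was -0.20 to 0.24.

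**Figure D5:**
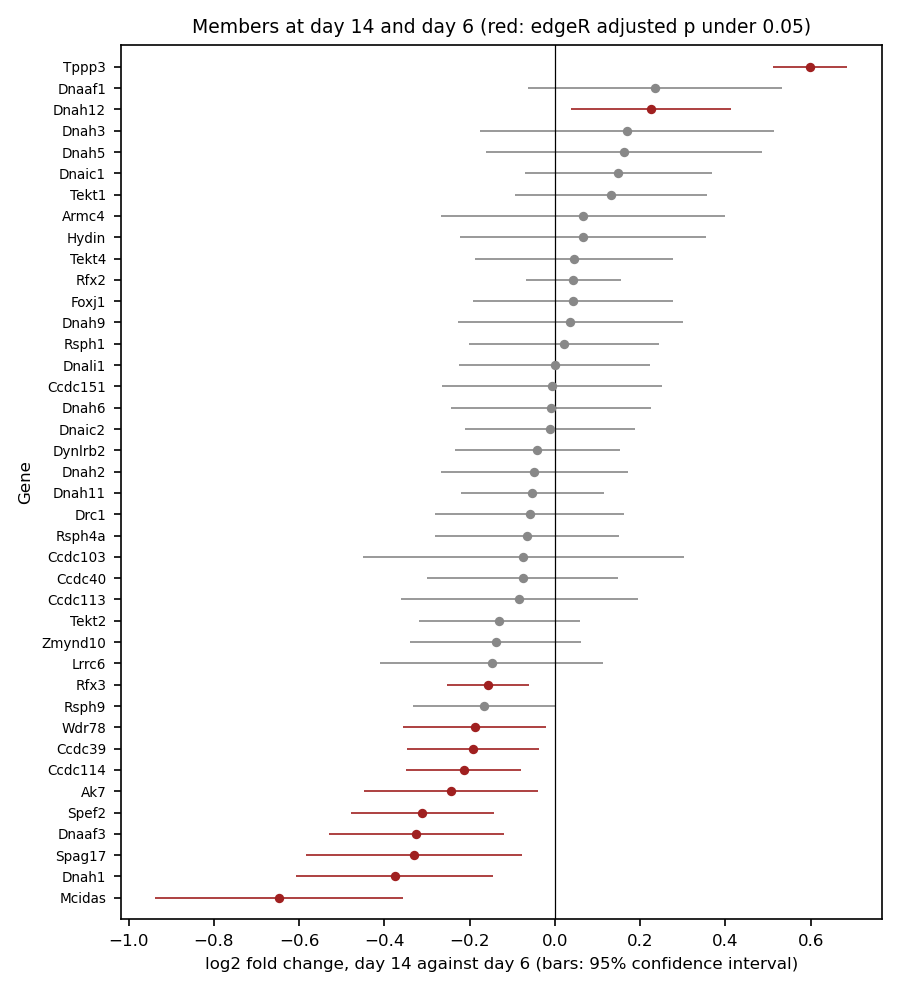
Log2 fold change of day 14 against day 6 for each of the 40 members, sorted, with 95% confidence intervals as bars and genes past the threshold in red. Tppp3 stands apart at 0.60, Mcidas is lowest at -0.65, and 28 members did not pass.

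Other lists are set against the 61.4% of all genes called between the ages (30% higher and 31.3% lower). Of 18 genes in the multiciliogenesis programme 11 fell and 1 rose at day 14 (median -0.23). That is near the share of all genes in total, but above it for falls and below it for rises. Plk4 fell by 1.22 on the log2 scale (SE 0.05, edgeR adjusted p = 1.49e-20) and Stil fell by 1.97 (SE 0.08, adjusted p = 9.15e-20), both centriole duplication genes that dividing cells use too. Ccno, which acts in centriole amplification of multiciliated cells, fell by 0.51 (SE 0.12, adjusted p = 0.000545). Of 78 other axoneme genes 9 fell and 2 rose, a share below that of all genes, and Mns1, a microtubule inner protein, fell by 1.04 (SE 0.09, adjusted p = 1.78e-12). Dnaaf2, an assembly factor, fell by 0.37 (SE 0.07, adjusted p = 1.32e-05) and the heavy chain Dnah7b fell by 0.36 (SE 0.09, adjusted p = 0.000430), while Dnah8 rose by 0.23 (SE 0.05, adjusted p = 0.000392). Club cell markers summed to 3914 to 9449 CPM at day 6 and 5192 to 8930 CPM at day 14, and 6 of the 9 rose and 2 fell. Their part in the cilia values was not tested.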

How the data were processed

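Lung RNA of 32 samples was sequenced after TruSeq stranded mRNA preparation, per the labels' protocols, and bcl2fastq 2.0 is named in the submitters' processing notes. Which aligner and build were used, and whether counting used strand, is not given in the sources used here. Per the file headers, the deposited counts are reads per gene record (exon, intron and gene, total and unique). The deposited TPM and RPKM values were not used. Groups came from the sample labels.

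Total exon counts were tested in R 4.3.3 by the robust quasi-likelihood F test of edgeR 4.0.16, after TMM scaling and filterByExpr, all groups of an age in 1 fit and all 32 libraries in 1 fit for the ages. Benjamini-Hochberg adjusted p under 0.05 over all genes tested was the threshold, whatever the fold. SE was taken from F, as the size of the log2 fold change over its square root. CPM come from 1 TMM scaling over the 32 libraries. The code was tested on simulated counts. Promoter windows came from RefSeq GRCm38.p6, where 40 members matched by gene ID. In 38 the lowest coordinate lay within 5 kb of that of the files' record. On the minus strand that coordinate is the end of the gene, so this does not check start sites there.

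Members and lists were chosen with earlier results of these data known. Named in full were members standing for each role, up to 6 called members whose mean reached 1 CPM, the 5 largest rises and falls between ages and, where none passed, the 2 with the smallest p. Other members called are named too, and some were named after their values were seen (Dnah3, Wdr78 for age and others beside a result). Of the other axoneme genes, up to 4 past the threshold were named.

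Alternatives were DESeq2 1.42.0, RLE scaling, no filter, unique reads, Xist as a covariate, the 8 libraries compared, the 2 saline groups, a replicate block and each library left out. Removal of the exon length trend (lowess, span 0.3) was added after results were seen.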

Additional observations from a re-analysis of the deposited data

Results flagged for a closer look

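In 7 of 176 groups of 4 values, 1 library lay far from the other libraries of its group by Dixon's test at the 95% level. Chance flags about 1 in 20 groups. In untreated, Tppp3 was low in replicate 4 at 199.846 CPM against 242 to 250 CPM in the others, Dnaaf3 was high in replicate 1 at 6.58705 CPM against 4.85 to 5.05, and Hydin was high in replicate 3 at 10.4212 CPM against 7.41 to 7.55. In water, Ccdc114 was high in replicate 3 at 13.9959 CPM against 11.6 to 12.0. Dynlrb2 was high in Scrambled 1 replicate 1 at 13.4551 CPM against 9.63 to 10.3, and in Miglyol replicate 4 at 12.8342 CPM against 10.3 to 10.5. Mcidas was high in day-6 saline replicate 1 at 2.46718 CPM against 1.68 to 1.73.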

How the results depend on the processing

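Of the counts of members called and the summed levels under alternatives, 224 stayed within 1.5 times or 1 SD and 8 moved. For single named members, 673 values kept direction and side of the threshold, 31 kept direction and lost the call, 7 kept direction and gained it, and 1 changed sign. For Miglyol against saline, DESeq2 called 5 members and the fit of only the 8 libraries compared called 8, and leaving out 1 library gave 0 to 6 (2 without saline replicate 1 and 6 without Miglyol replicate 2). For tamoxifen against saline, removal of the exon length trend left 3, and leaving out 1 library gave 3 to 9 (3 without saline replicate 4). For day 14 against day 6, leaving out 1 library gave 9 to 12. With unique exon reads the summed mean level of all 40 members was 705 CPM in Scrambled 2 and 610 CPM in Miglyol, where total exon reads gave 663 and 571 CPM. Between only the 2 saline groups the log2 fold change of Dnah12 was -0.039, the value that changed sign, and 8 members were called. For these counts of members the share of all genes called in the same fit is not given here. The causes of these moves were not tested. The labels do not say whether same-numbered samples belong together, and they were not treated as pairs. In no comparison were the correlations of all 4 same-numbered pairs over 0.1, and in none did all 4 samples correlate best with their own number. Single correlations ran from -0.16 to 0.50 for water against untreated, so this check cannot show that the samples are unpaired. With the replicate block 5 members were called for tamoxifen against saline, where Ccdc114 (adjusted p = 0.0599) and Tppp3 (adjusted p = 0.0612) missed the threshold in edgeR, and the block moved no other count of members called. Over all genes the block gave 461 calls against 1498 for Miglyol against saline, and DESeq2 gave 114 against 33 for daily saline against untreated and 98 against 17 for Scrambled 1 against water. Depth limits the thin genes most, with Ccdc103 at 2 to 26 reads and Mcidas at 7 to 35 reads a library.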

Other observations

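Genes of intraflagellar transport and the primary cilium, which motile and non-motile cilia share, were listed with earlier results known, beside the members. Of 45 tested, 21 were called lower and 5 higher at day 14 against day 6, against 61.4% of all genes (31.3% lower and 30% higher). Ift80, a transport subunit, fell by 0.35 on the log2 scale (SE 0.04, edgeR adjusted p = 2.22e-08), and Ift81, another subunit, fell by 0.33 (SE 0.04, adjusted p = 7.17e-08). For tamoxifen against saline 3 were called lower and 2 higher, against 23.7% of all genes. The long gene Dync2h1, the motor of return transport, fell by 0.57 (SE 0.15, adjusted p = 0.0131). Ages, treatments and anaesthetics cannot be told apart in the first of these contrasts.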
